A study of Mus musculus with 6 samples.

Results

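The numbered Gpr genes mostly encode G protein-coupled receptors that were named in order of their discovery, before a ligand was known. Some encode other membrane proteins, and Gpr137b-ps is a pseudogene. The genes taken here were every row of the deposited table whose symbol is Gpr followed by a digit. This gave 78 of 55487 genes. The values are FPKM (reads scaled to transcript length and library total) from mRNA sequencing of mouse bone marrow-derived dendritic cells (BMDC, cells grown out of marrow in culture), one shared batch date being given for every sample. The tested cells had received NanoCa, which the title calls a lipid nanoparticle with calcium, at 100 μM, and the Mock cells are labelled as untreated. The treatment protocol that names NanoCa also stands on the Mock samples, so whether they were given any particle is not settled, and the treatment label was followed. Both groups are labelled as female mice 4 to 8 weeks old, no strain is given, and neither the time of exposure nor pooling of animals is stated in the sources used here. The labels give 3 samples per group, but the replicate 3 column of each group was a constant (1.0011 in NanoCa, 1.001876 in Mock) times the mean of replicates 1 and 2. It carries no spread of its own, so 2 libraries per group were used.

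Such receptors sit mostly in the cell membrane, bind small molecules, lipids, peptides or protons, and pass the signal to heterotrimeric G proteins that raise or lower cyclic AMP or release calcium. In dendritic cells and macrophages, the better studied members sense extracellular acid, fatty acids, lysophospholipids and oxysterols, and steer migration and cytokine output. Some proteins of the series are not cell-surface receptors in practice but lie in the Golgi or the lysosome, where several act in pH control or in signalling to the growth kinase mTORC1.

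The bases upstream of the start site are shown for 6 genes at the ends of the response, 3 that were higher in NanoCa (Gpr84, Gpr65, Gpr35) and 3 that were lower (Gpr160, Gpr183, Gpr15), with a promoter in the RefSeq table of GRCm38.p6. Promoters of 19 of the 25 genes tested below were matched by symbol, and Gpr34, Gpr171, Gpr162, Gpr137b and Gpr137b-ps were among those with no entry there. The table's build differs from that of the deposited values (GRCm39, per the submitters' processing notes), so these coordinates belong to the sequences alone. Each line holds the 250 bases before the start, 5′ to 3′ on the gene's strand, and capitals mark every match to one of 7 short motifs on either strand.
Gpr84 (chr15:103310439-103310688, - strand): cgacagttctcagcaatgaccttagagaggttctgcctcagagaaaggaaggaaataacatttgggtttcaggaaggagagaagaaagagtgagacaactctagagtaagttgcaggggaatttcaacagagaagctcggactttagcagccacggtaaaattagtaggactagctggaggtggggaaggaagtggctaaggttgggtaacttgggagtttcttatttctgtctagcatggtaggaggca
Gpr65 (chr12:98268385-98268634, + strand): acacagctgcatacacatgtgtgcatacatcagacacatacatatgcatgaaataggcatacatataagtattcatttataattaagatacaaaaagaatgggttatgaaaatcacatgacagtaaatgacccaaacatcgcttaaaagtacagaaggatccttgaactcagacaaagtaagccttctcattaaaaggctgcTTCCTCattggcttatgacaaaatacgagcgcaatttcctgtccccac
Gpr35 (chr1:92978653-92978902, + strand): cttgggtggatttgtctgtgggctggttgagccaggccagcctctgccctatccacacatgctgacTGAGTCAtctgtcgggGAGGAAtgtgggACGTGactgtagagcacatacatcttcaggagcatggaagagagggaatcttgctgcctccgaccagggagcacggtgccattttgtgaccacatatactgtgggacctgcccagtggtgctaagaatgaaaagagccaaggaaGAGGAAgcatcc
Gpr160 (chr3:30855700-30855949, + strand): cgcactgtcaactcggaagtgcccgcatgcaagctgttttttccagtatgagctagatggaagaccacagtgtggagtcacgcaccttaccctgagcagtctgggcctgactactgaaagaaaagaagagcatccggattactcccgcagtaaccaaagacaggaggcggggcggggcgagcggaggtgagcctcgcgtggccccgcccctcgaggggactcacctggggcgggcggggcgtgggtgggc
Gpr183 (chr14:121965194-121965443, - strand): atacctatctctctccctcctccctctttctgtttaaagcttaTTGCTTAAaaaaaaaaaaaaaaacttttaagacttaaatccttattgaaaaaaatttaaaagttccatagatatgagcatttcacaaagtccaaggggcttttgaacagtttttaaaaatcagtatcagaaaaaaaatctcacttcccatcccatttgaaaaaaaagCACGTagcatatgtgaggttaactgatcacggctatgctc
Gpr15 (chr16:58718873-58719122, - strand): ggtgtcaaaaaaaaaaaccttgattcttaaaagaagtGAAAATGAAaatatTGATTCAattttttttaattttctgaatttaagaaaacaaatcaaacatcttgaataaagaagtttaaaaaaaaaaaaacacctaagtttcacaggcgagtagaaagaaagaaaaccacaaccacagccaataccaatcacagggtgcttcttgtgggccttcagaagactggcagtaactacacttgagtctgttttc

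The motifs were GAAANNGAA (interferon-stimulated response element), the NF-kB consensus, TGANTCA (AP-1), GAGGAA (PU.1), TTGCNNAA (C/EBP), ACGTG (the core of the hypoxia response element) and TGACGTCA (cyclic AMP response element), with overlaps between motifs allowed. Gpr84 and Gpr160 held none of them. Gpr65 held a PU.1 match 48 to 43 bases before the start. The second of 2 start sites listed for Gpr35, shown above, held AP-1 and hypoxia matches and a pair of PU.1 matches. The first Gpr35 site, not shown, held no match to any of the motifs. Gpr15 held a GAAANNGAA match, 213 to 205 bases before the start, and an AP-1 match. Gpr183 held a C/EBP and a hypoxia match. Over all 32851 promoters of the table, 7.13% held GAAANNGAA, 7.25% the NF-kB consensus, 6.75% TGANTCA, 23.3% GAGGAA, 9.56% TTGCNNAA, 16.6% ACGTG and 1.55% TGACGTCA. The 19 tested genes with an entry had 25 promoters, several for some genes. Among these promoters the matching counts, in the same order, were 2, 2, 2, 6, 2, 6 and 0.

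Library totals, read from the steps of the FPKM values, were 23991472 and 22793565 in the NanoCa libraries and 31131990 and 26975437 in the Mock libraries. The group means of NanoCa and Mock rest on 2 libraries each, and nothing in the labels says that they came from separate cultures or animals, so the p-values speak only to library spread, possibly technical. The dendritic cell markers Itgax, Cd74 and H2-Ab1 were high in all 4 libraries, while Flt3 and Zbtb46 were below 1 FPKM in each. The macrophage markers Csf1r, Adgre1 and Cd68 were at 214 to 1040 FPKM. Summed FPKM of 8 neutrophil markers was 50.7 and 62.8 in NanoCa against 227 and 415 in Mock (Ly6g at or under 0.118 throughout). For 5 mast cell and basophil markers it was 2.64 and 2.67 against 12.2 and 19.7, and for 4 fibroblast markers 34.9 and 33.4 against 6.67 and 6.88. T cell markers summed to 0.538 to 1.05 and NK cell markers to 0.0424 to 0.184 in all libraries. The 5 B cell markers summed to 0.465 and 0.299 in NanoCa against 7.57 and 10.7 in Mock, nearly all of it Ighm. Of the remaining lists, 7 dendritic cell markers summed to 1220 and 1290 in NanoCa against 1930 and 1910 in Mock. Among them Itgax, Cd74, H2-Ab1 and Batf3 fell and Ccr7 rose. The 7 macrophage markers summed to 7250 and 7460 against 24800 and 25100 (Lyz2 and Mertk fell and Csf1r, Adgre1, Cd14, Fcgr1 and Cd68 rose). For 4 plasmacytoid dendritic cell markers the sums were 580 and 618 against 86.4 and 79.7 (mostly Bst2, with Siglech at 0 in NanoCa). The 4 erythroid markers summed to 0.205 or less. Xist was at 33.5 and 33.3 FPKM in NanoCa against 0.00179 and 0.00207 in Mock (1 read in each Mock library). Y-linked Ddx3y was at 14.2 and 12.9 against 34.5 and 32.5, although the labels give female mice throughout. Y-linked Uty, Eif2s3y and Kdm5d were also lower in NanoCa (log2 fold changes -1.18, -1.5 and -1.45). By these transcripts the sex make-up of the cells differed between the groups along with treatment. In every comparison below, treatment and this difference in the source of the cells cannot be told apart. The part of these differences in the results on Gpr genes was not tested. In bulk RNA, fewer cells that make a transcript and less of it per cell cannot be told apart.

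Of the 78 Gpr genes, 21 were listed at 0 in all 4 libraries, 32 had reads but a mean FPKM below 1 over the 4 libraries, and 25 reached a mean of 1 and were tested. The lowest of the 25 was Gpr55 at a mean of 1.27 FPKM, and the highest below the line was Gpr19 at 0.932. Gpr34 alone of the 25 had a group mean below 1 (NanoCa) and reached the line through the Mock libraries. The test was limma on log2(FPKM + 1) across all 11116 genes with a mean of at least 1, with Benjamini-Hochberg adjustment over them and a threshold of 0.05, and every log2 fold change below is NanoCa minus Mock on that scale. It understates the change of low genes, so the NanoCa mean is also given as a fold or percent of the Mock mean for the genes called. Values after ± are standard errors of the fit.

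Gpr genes moved in both directions. Of the 25 tested, 8 were higher in NanoCa, 11 were lower and 6 did not pass the test. Over all genes tested the test called 71.3%, with 21.7% higher and 49.7% lower, against 76.0%, 32.0% and 44.0% of the Gpr genes, so a call by itself was common in this comparison. With median-of-ratios scaling the Gpr calls were 11 higher and 10 lower, and those of all genes 3717 and 3620 (33.4% and 32.6%, 66.0% together), against 2409 and 5520 on deposited FPKM. The median log2 fold change was 0.01 for the 25 Gpr genes and -0.17 for all genes, a shift that this scaling takes to 0.18 for the Gpr genes and about 0 for all genes. Among the calls, 2 Gpr genes were higher by at least 2-fold in mean FPKM (8.00% of the tested, 6.18% of all genes) and 6 were lower by at least 2-fold (24.0%, against 9.04% of all genes). The NanoCa libraries lay above both Mock libraries for 11 and below both for 12 (27.4% and 58.9% of all genes, 86.3% together), the exceptions being Gpr108 and Gpr137. Among genes with a mean of at least 5 FPKM, 24.7% of all genes were higher and 51.1% lower (75.9% together), against 5 and 6 of the 14 Gpr genes at that level. With the replicate number as a block, 22.8% of all genes were higher and 51.2% lower (74.0% together), and 8 and 11 Gpr genes. With the genes on X and Y left out these shares were 21.9% and 49.4% (71.2% together), with 8 and 10 Gpr genes. Replicates lay close, with a median ratio of 1.05 between the libraries of a group and a largest of 1.32, in NanoCa for Gpr85.

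**Figure D1:**
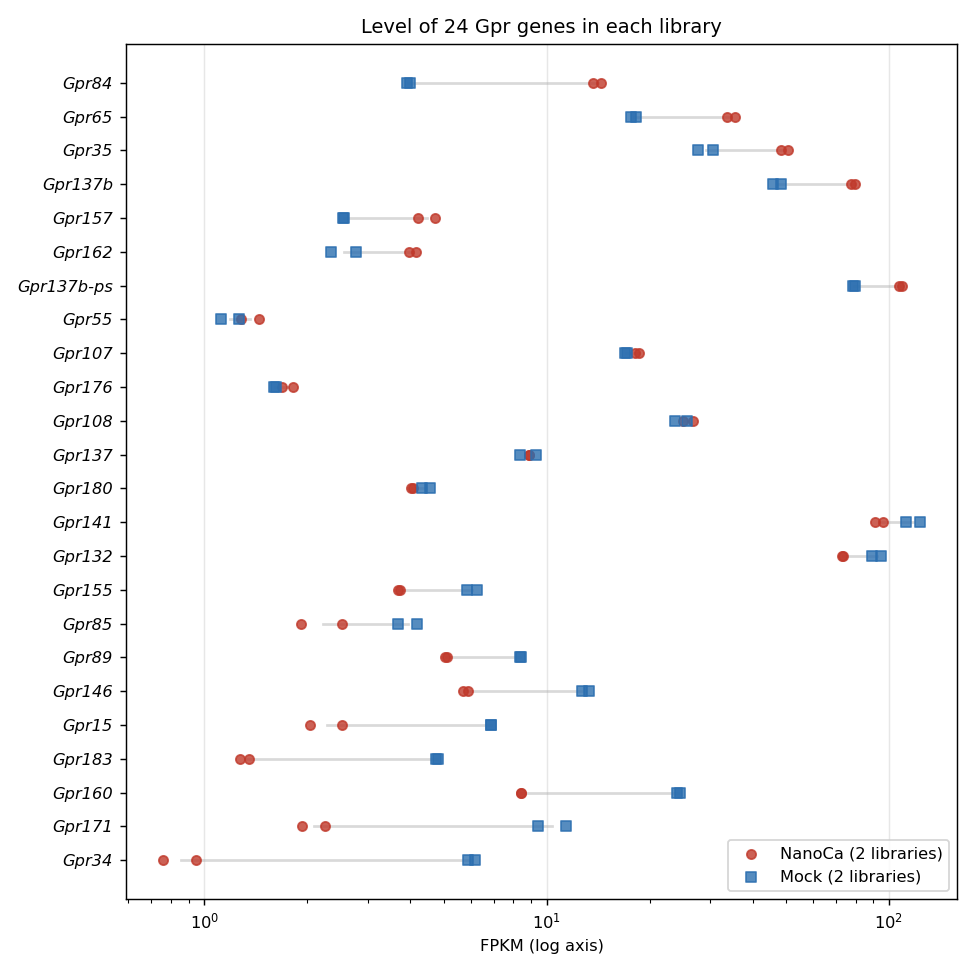
FPKM (log axis) of 24 of the 25 Gpr genes with a mean of at least 1, one point per library, NanoCa circles and Mock squares, joined by a grey line between group means. Rows run from the largest rise (Gpr84, 13.7 and 14.4 FPKM in NanoCa against 3.91 and 3.98 in Mock) to the largest fall (Gpr34, 0.759 and 0.946 against 5.91 and 6.18), and pairs of replicates lie closer together than the groups at both ends.

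Among the receptors that respond to extracellular acid, Gpr65 was higher in NanoCa and Gpr132 was lower. Gpr65 (TDAG8), which couples acid to cyclic AMP in leukocytes, was at 35.4 and 33.7 FPKM in NanoCa cells against 17.7 and 18.3 FPKM in Mock cells. Both NanoCa libraries lay above both Mock libraries, by 1.92-fold in the means (log2 fold change 0.91, SE 0.045, limma adjusted p = 1.41e-05). Gpr132, a stress-inducible receptor linked to lactate and oxidised fatty acids, went the other way, at 73.0 and 73.5 FPKM in NanoCa against 89.1 and 95.1 in Mock (-0.33 ± 0.044 on the log2 scale, adjusted p = 0.000857; 79.6% of Mock). With median-of-ratios scaling its difference shrank to -0.13 (adjusted p = 0.0303). Gpr4, the endothelial member, drew no read in NanoCa and 1 read in Mock.

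Of 10 genes for receptors of lipids and metabolites 5 were tested, 2 were higher, 2 were lower and Gpr55 did not pass, where 21.7% of all genes were higher and 49.7% lower. Gpr84, a receptor for medium-chain fatty acids that myeloid cells induce on inflammatory stimulation, was at 13.7 and 14.4 FPKM in NanoCa (568 and 567 reads) against 3.91 and 3.98 FPKM in Mock (210 and 185 reads). This was the largest rise among the 25, at 3.57-fold in the means (1.61 ± 0.053 on the log2 scale, adjusted p = 3.11e-06; 1.78 above the median of all genes). Gpr35, which responds to kynurenic acid and to a serotonin metabolite, was at 48.3 and 50.6 FPKM in NanoCa against 27.7 and 30.7 in Mock. It was 1.69-fold higher (0.74 ± 0.059 on the log2 scale, adjusted p = 9.11e-05).

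Gpr34, a receptor for lysophosphatidylserine best known from microglia, showed the largest fall. It was at 0.759 and 0.946 FPKM in NanoCa (38 and 45 reads) against 5.91 and 6.18 FPKM in Mock (384 and 348 reads). The NanoCa mean was 14.1% of the Mock mean (-1.93 ± 0.081 on the log2 scale, adjusted p = 7.45e-06). Gpr34 is the one tested Gpr gene on the X chromosome, whose Xist transcript differed between the groups as given above, and it lies in an intron of Cask, which was at 4.07 and 3.80 FPKM in NanoCa against 3.90 and 3.41 in Mock (log2 fold change 0.09, adjusted p = 0.359). Cask passed as higher with median-of-ratios scaling (0.24, adjusted p = 0.0365). Gpr183 (EBI2), the oxysterol receptor that positions dendritic and B cells in lymphoid tissue, was at 1.27 and 1.35 FPKM in NanoCa (83 and 84 reads) against 4.75 and 4.83 FPKM in Mock (403 and 355 reads). The NanoCa mean was 27.4% of the Mock mean (-1.33 ± 0.069 on the log2 scale, adjusted p = 1.67e-05), while Ubac2, in whose intron Gpr183 lies, was at -0.02 (adjusted p = 0.766). Gpr55, a receptor for lysophosphatidylinositol, was low in all libraries, at 1.28 and 1.44 FPKM in NanoCa against 1.12 and 1.26 in Mock (log2 fold change 0.11, 95% interval -0.12 to 0.33, adjusted p = 0.33). It passed as higher with quantile normalization (0.33, adjusted p = 0.0172; over all settings 0.0172 to 0.697).

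Of 9 genes for orphan and peptide receptors of leukocytes 5 were tested, and all 5 were lower in NanoCa (49.7% of all genes were lower), with a median log2 fold change of -1.27 against -0.17 for all genes. The role lists were chosen with earlier results of these data known. Other receptors of leukocytes stand under other roles, among them Gpr65 and Gpr84, which rose, and Gpr183, which fell. The shared direction of the 5 therefore rests on this grouping. Gpr171, a receptor of lymphoid and myeloid cells for the neuropeptide BigLEN, was at 2.25 and 1.93 FPKM in NanoCa (120 and 98 reads) against 9.46 and 11.4 FPKM in Mock (655 and 685 reads). The NanoCa mean was 20% of the Mock mean (-1.88 ± 0.10 on the log2 scale, adjusted p = 1.8e-05). Gpr160, an orphan receptor, was at 8.44 and 8.42 FPKM in NanoCa against 24.0 and 24.5 in Mock (-1.42 ± 0.043 on the log2 scale, adjusted p = 2.44e-06; 34.8% of Mock). Gpr15, a homing receptor of gut and skin T cells, was at 2.04 and 2.52 FPKM in NanoCa (80 and 94 reads) against 6.88 and 6.86 FPKM in Mock (351 and 303 reads). It stood at 33.1% of the Mock mean (-1.27 ± 0.085 on the log2 scale, adjusted p = 4.57e-05), and its exons overlap those of Cpox on the other strand, which also fell (-0.65, adjusted p = 5.72e-05).

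Gpr146, an orphan receptor studied in liver for its effect on plasma cholesterol, was at 5.89 and 5.68 FPKM in NanoCa against 12.7 and 13.3 in Mock. It stood at 44.5% of Mock (-1.05 ± 0.051 on the log2 scale, adjusted p = 1.33e-05). Gpr141, an orphan receptor of myeloid cells, had the most reads of the 78 genes, 7899 and 7143 in NanoCa against 13187 and 10350 in Mock. It was at 95.9 and 91.3 FPKM in NanoCa against 123 and 112 in Mock. Its fall was small (-0.32 ± 0.057 on the log2 scale, adjusted p = 0.00275; 79.6% of Mock) and did not pass the test with median-of-ratios scaling (-0.13, adjusted p = 0.103; over all settings 1.76e-05 to 0.103).

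**Figure D2:**
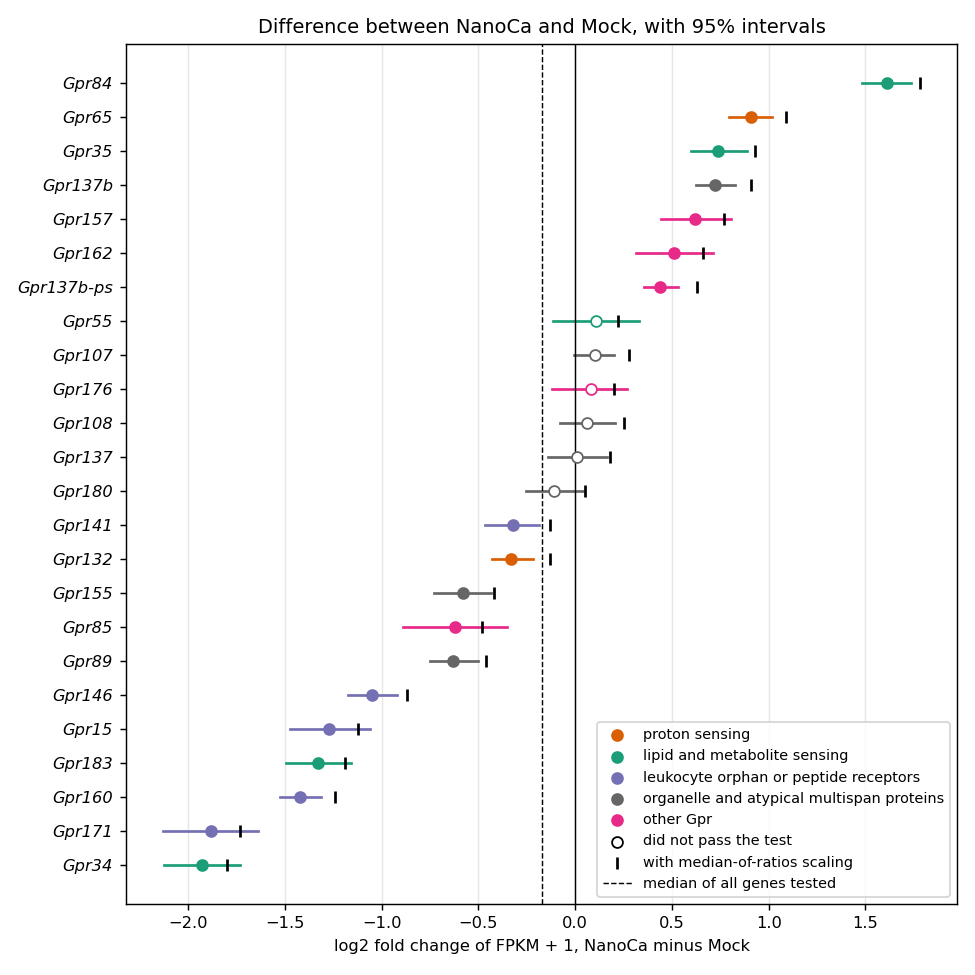
Log2 fold change (NanoCa minus Mock) of FPKM + 1 with its 95% interval from limma for 24 of the 25 tested Gpr genes, coloured by role, open where the test was not passed. Black ticks give the value with median-of-ratios scaling and the dashed line the median of all genes (-0.17). The 5 leukocyte orphan and peptide receptors lie between -1.88 and -0.32, and proton, lipid and organelle groups lie on both sides of 0.

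Of 9 genes for proteins of the Golgi, the lysosome and other membranes 7 were tested, 1 was higher, 2 were lower and 4 did not pass, where 71.3% of all genes were called. Gpr137b, a lysosomal membrane protein that acts on Rag GTPases and mTORC1, was at 79.4 and 77.7 FPKM in NanoCa against 48.3 and 46.0 in Mock. It was 1.67-fold higher (0.72 ± 0.041 on the log2 scale, adjusted p = 2.39e-05). Its pseudogene Gpr137b-ps was at 109 and 107 FPKM in NanoCa against 79.6 and 78.7 in Mock (0.44 ± 0.036 on the log2 scale, adjusted p = 0.000105; 1.36-fold). Of all 50-base windows in the longest Gpr137b transcript, 15.8% occur in that of Gpr137b-ps, so how reads were divided between the pair is uncertain, and their summed reads were 20733 in NanoCa against 17094 in Mock, a ratio of read rates of 1.51.

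Gpr89, an anion channel of the Golgi that keeps its lumen acid, was at 5.05 and 5.11 FPKM in NanoCa against 8.39 and 8.37 in Mock (-0.63 ± 0.051 on the log2 scale, adjusted p = 0.000101; 60.6% of Mock). Gpr155, a cholesterol sensor of the lysosome that signals to mTORC1, was at 3.67 and 3.73 FPKM in NanoCa against 6.25 and 5.85 in Mock (-0.58 ± 0.061 on the log2 scale, adjusted p = 0.000282; 61.2% of Mock). For both, each NanoCa library lay below each Mock library. The Golgi proteins Gpr107 and Gpr108 were at 18.6 and 18.1 FPKM and at 25 and 26.8 FPKM in NanoCa, against 16.9 and 17.2 FPKM and 23.7 and 25.8 FPKM in Mock (log2 fold changes 0.10 and 0.06, adjusted p = 0.0772 and 0.366). Gpr137 of the lysosome was at 8.91 and 8.89 FPKM in NanoCa against 8.35 and 9.33 in Mock (0.01, 95% interval -0.14 to 0.16, adjusted p = 0.887). Gpr180, a component of TGF-beta signalling in fat, was at 4.07 and 4.02 FPKM in NanoCa against 4.32 and 4.55 in Mock (-0.11, 95% interval -0.25 to 0.04, adjusted p = 0.161). With median-of-ratios scaling Gpr107 (0.28, adjusted p = 0.0015), Gpr108 (0.25, adjusted p = 0.00684) and Gpr137 (0.18, adjusted p = 0.0312) passed as higher. Gpr107 also passed with limma-voom on recovered reads (0.11, adjusted p = 0.0406).

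Of the 39 remaining Gpr genes 5 were tested, among them Gpr137b-ps above. Gpr157, studied as a ciliary receptor of neural progenitors, was at 4.2 and 4.73 FPKM in NanoCa against 2.54 and 2.55 in Mock (0.62 ± 0.074 on the log2 scale, adjusted p = 0.000494; 1.75-fold). Gpr162, an orphan receptor known from brain, was at 3.97 and 4.15 FPKM in NanoCa against 2.34 and 2.77 in Mock (0.51 ± 0.082 on the log2 scale, adjusted p = 0.0018; 1.59-fold). Both were higher in each NanoCa library than in each Mock library. Gpr85, a conserved brain orphan, was at 2.53 and 1.92 FPKM in NanoCa against 4.19 and 3.69 in Mock (-0.62 ± 0.11 on the log2 scale, adjusted p = 0.00292; 56.4% of Mock), with the widest replicate gap of the 25. Gpr176, a receptor of the brain's circadian clock, was at 1.81 and 1.69 FPKM in NanoCa against 1.60 and 1.62 in Mock and did not pass (0.08, adjusted p = 0.424), though it did with quantile normalization (0.30, adjusted p = 0.0168; over all settings 0.0168 to 0.733).

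The order of FPKM levels between genes depends on the length by which the authors divided. For 2 of the 25 it was that of a short annotated transcript. The values of Gpr35 gave whole reads at a length of 246 bases, where its longest annotated transcript has 4214, and those of Gpr132 at 358 bases, where the longest has 2478. On the longest transcript Gpr35 would stand at 2.89 FPKM in NanoCa against 1.71 in Mock, and Gpr132 at 10.6 against 13.3. The ratio of group means within a gene does not depend on this length, but the log2(FPKM + 1) difference does. On the longest transcripts the difference was 0.52 for Gpr35 (adjusted p = 0.000925) and -0.30 for Gpr132 (adjusted p = 0.00163). With the longest transcripts as lengths 8 Gpr genes were again higher and 11 lower (21.8% and 49.7% of all genes, 71.4% together). By the mean over the 4 libraries on that scale, the highest Gpr genes per length were Gpr141 (93.6 FPKM in NanoCa, 118 in Mock), Gpr137b-ps (70.0 and 51.3), Gpr137b (64.2 and 38.6) and Gpr65 (34.5 and 18.0). Gpr108 followed (25.9 and 24.8) and was above Gpr65 in Mock.

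Below the line of 1 FPKM, 32 Gpr genes had reads. For these the ratio of read rates between groups is given with an exact 95% interval, which covers counting error only. Gpr31c had the largest ratio among genes with reads in both groups, and it belongs to the Gpr31 family, whose human counterpart binds the arachidonate product hydroxyeicosatetraenoic acid. Gpr31c drew 65 and 64 reads in NanoCa against 11 and 5 in Mock, a ratio of 10.0 (5.94 to 18.0). Gpr31b had 8 and 10 reads in NanoCa against 4 and 3 in Mock, a ratio of 3.19 (1.27 to 9.05). Gpr31a drew 3 and 3 reads in NanoCa against 0 in Mock, where the exact interval of the ratio has a lower limit of 1.46 and no upper limit. The copies share sequence, since 50.1% of the 50-base windows of Gpr31b occur in Gpr31c and 55.9% of those of Gpr31a in Gpr31b, so the division of reads among them is uncertain. Summed over the family there were 153 reads in NanoCa against 23 in Mock, a ratio of 8.26 (5.31 to 13.4), and in each NanoCa library the sum (76 and 77) was above that of each Mock library (15 and 8).

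Gpr82, Gpr141b, Gpr137c and Gpr19 had lower read rates per library total in NanoCa, with intervals below 1. The median-of-ratios factors (0.934 and 0.937 in NanoCa, 1.06 and 1.08 in Mock) were not applied to read rates and would raise every ratio. The limits of 0.914 for Gpr19 (upper) and Gpr18 (lower) lie close enough to 1 to cross it with such scaling. Gpr82, an orphan receptor next to Gpr34 on the X chromosome and likewise in an intron of Cask, had 9 and 8 reads in NanoCa against 33 and 26 in Mock, a ratio of 0.358 (0.196 to 0.622). Gpr141b, next to Gpr141, had 11 and 9 reads in NanoCa against 32 and 26 in Mock, a ratio of 0.428 (0.244 to 0.723), and shares no 50-base window with Gpr141. Gpr137c, a paralogue of Gpr137, had 11 and 15 reads in NanoCa against 52 and 35 in Mock, a ratio of 0.371 (0.230 to 0.581). Gpr19, an orphan receptor, had 31 and 42 reads in NanoCa against 67 and 66 in Mock, a ratio of 0.682 (0.505 to 0.914). Gpr18, which adjoins Gpr183 and likewise lies in an intron of Ubac2, had 22 and 33 reads in NanoCa against 24 and 26 in Mock, a ratio of 1.37 (0.914 to 2.05), where its neighbour fell. In the fit without a filter on low values, which called 35.5% of 23929 genes (11.6% higher, 23.9% lower), Gpr31a, Gpr31b and Gpr31c passed as higher and Gpr82, Gpr141b and Gpr137c as lower, while Gpr18 and Gpr19 did not pass. The remaining 25 genes with reads, Gpr31a among them, had 1 to 21 reads over the 4 libraries, too few at this depth to show a difference of moderate size. They include Gpr174, a further lysophosphatidylserine receptor, with 5 reads in NanoCa against 10 in Mock, the zinc receptor Gpr39 with 9 against 2 (a ratio of 5.59, 1.16 to 53.2), Gpr149 with 5 against 0, the ciliary receptor Gpr161 with 7 against 4, and the class C orphans Gpr158 and Gpr179, of which Gpr39 and Gpr149 are named after their values were seen. Among the 21 at 0 were the constitutively active receptors Gpr3, Gpr6 and Gpr12, the pancreatic receptor Gpr119 and the pigment cell receptor Gpr143.

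**Figure D3:**
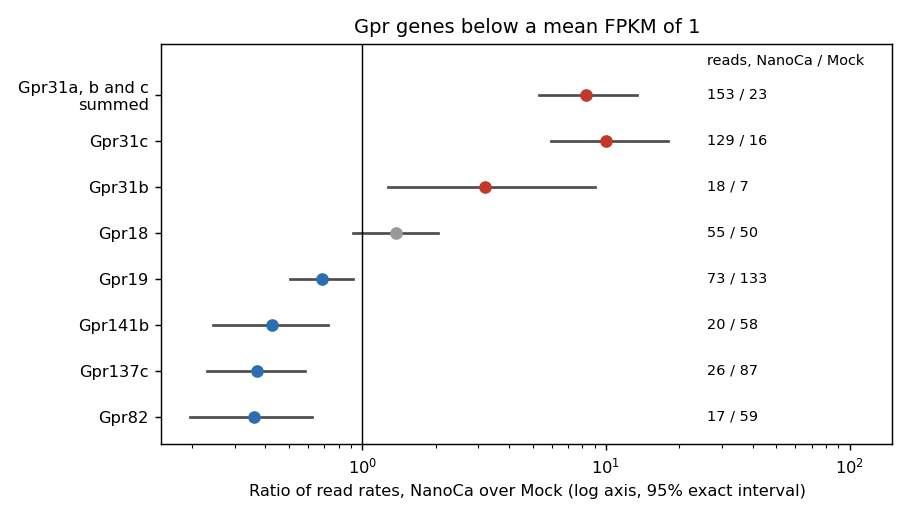
Ratio of read rates (NanoCa over Mock, log axis) with exact 95% intervals for the 7 Gpr genes between a mean FPKM of 0.1 and 1 and for the summed Gpr31 family, with the reads of each group at the right. Gpr31b, Gpr31c and the family sum lie right of 1. Gpr19, Gpr82, Gpr141b and Gpr137c lie left of it, and the interval of Gpr18 spans 1. Rates are per library total, without median-of-ratios factors, which would raise every ratio.

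Some Gpr genes lie beside other receptor genes, and their neighbours did not always move with them. Gpr171 lies in an intron of Med12l, with the nucleotide receptor gene P2ry14 beside it. Med12l was below 1 FPKM and was not tested, at 0.326 and 0.319 FPKM in NanoCa against 0.873 and 0.953 FPKM in Mock, so both NanoCa libraries lay below both Mock libraries, as for Gpr171. P2ry14, and P2ry13 and P2ry12 of the same subfamily, were chosen here after their values were seen. P2ry12 was at 2.43 and 2.46 FPKM in NanoCa against 7.21 and 7.34 in Mock (log2 fold change -1.26, adjusted p = 1.01e-05), and P2ry13 at 11.9 and 10.9 against 27.7 and 29.1 (-1.25, adjusted p = 8.38e-06). P2ry14, which adjoins Gpr171, was at 88.5 and 88.9 FPKM in NanoCa against 90.8 and 88.6 in Mock (-0.02, adjusted p = 0.694), and passed as higher with median-of-ratios scaling (0.17, adjusted p = 0.00883) and as lower with quantile normalization (-0.15, adjusted p = 0.0118). Exons of 10 of the 25 tested Gpr genes overlap exons of another annotated gene, in 9 of them on the other strand alone. Among the 10 are Gpr84, Gpr65, Gpr89, Gpr155 and Gpr15, which were called, and Gpr55, Gpr107, Gpr137 and Gpr176, which were not. Whether the counting used strand is not given in the sources used here, so reads of such pairs cannot be told apart.

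Around the receptors, 3 lists of signalling genes were read from the same fit. Of 32 receptors that once had a Gpr number and now carry another symbol, 6 were tested, 3 were lower (50%, against 49.7% of all genes) and 3 did not pass, with a median of -0.15. Adgrg6 had the highest log2 fold change of the 6 (0.11, adjusted p = 0.328). Ltb4r1, the leukotriene B4 receptor, was at 1.02 and 0.787 FPKM in NanoCa against 9.54 and 11.0 in Mock (-2.57, adjusted p = 4.7e-06; 8.79% of Mock). Its NanoCa mean was below 1 FPKM, so it reached the line of 1 through the Mock libraries. P2ry13 fell as given above, and stood at 40.1% of Mock. Hcar2, the receptor for niacin and ketone bodies, was at 3.93 and 4.50 FPKM in NanoCa against 4.89 and 5.17 in Mock (-0.21, adjusted p = 0.043). It no longer passed under median-of-ratios scaling (-0.05, adjusted p = 0.557), with quantile normalization (adjusted p = 0.957), without a filter (adjusted p = 0.126) and without NanoCa replicate 1 (adjusted p = 0.184), Mock replicate 1 (0.0613) or Mock replicate 2 (0.153). Of 26 G protein subunit, receptor kinase (GRK) and arrestin genes, 22 were tested, 5 were higher and 10 lower (22.7% and 45.5%, near the 21.7% and 49.7% of all genes), with a median of -0.09. Gnb4 and Gng5, G protein beta and gamma subunits, rose (0.72 and 0.47, or 2.15-fold and 1.39-fold), and the receptor kinases Grk3 and Grk6 fell (-1.05 and -0.66). Grk3 was at 1.56 and 1.56 FPKM in NanoCa against 4.21 and 4.42 in Mock (adjusted p = 4.09e-05). It stood at 36.2% of Mock. With median-of-ratios scaling 8 of this list were higher and 8 lower, where 33.4% and 32.6% of all genes were called.

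Of 25 cyclic AMP pathway genes, 17 were tested, 4 were higher and 10 lower (23.5% and 58.8%, against 21.7% and 49.7% of all genes), with a median of -0.37 against -0.17 for all genes. With median-of-ratios scaling 6 of the 17 were higher and 9 lower, where 33.4% and 32.6% of all genes were called. In this list 2 genes (Adcy3 and Adcy6), and in the G protein list 1 (Grk4), had a group mean below 1 FPKM. Of 6 phosphodiesterases tested, which degrade cyclic AMP, 2 were higher, 2 were lower (Pde4d and Pde7a) and 2 did not pass. Pde4b was at 14.7 and 14.8 FPKM in NanoCa against 8.54 and 9.39 in Mock (0.66, adjusted p = 0.000124; 1.64-fold) and Pde3b rose by 0.49 (1.75-fold), whereas Pde4d was at 1.5 and 1.53 FPKM in NanoCa against 4.06 and 3.98 in Mock (-1.0, adjusted p = 5.08e-05; 37.7% of Mock). Prkacb, a catalytic subunit of protein kinase A, was at 21.5 and 20.6 FPKM in NanoCa against 34.6 and 34.6 in Mock (-0.69, adjusted p = 2.78e-05; 60.9% of Mock).

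**Figure D4:**
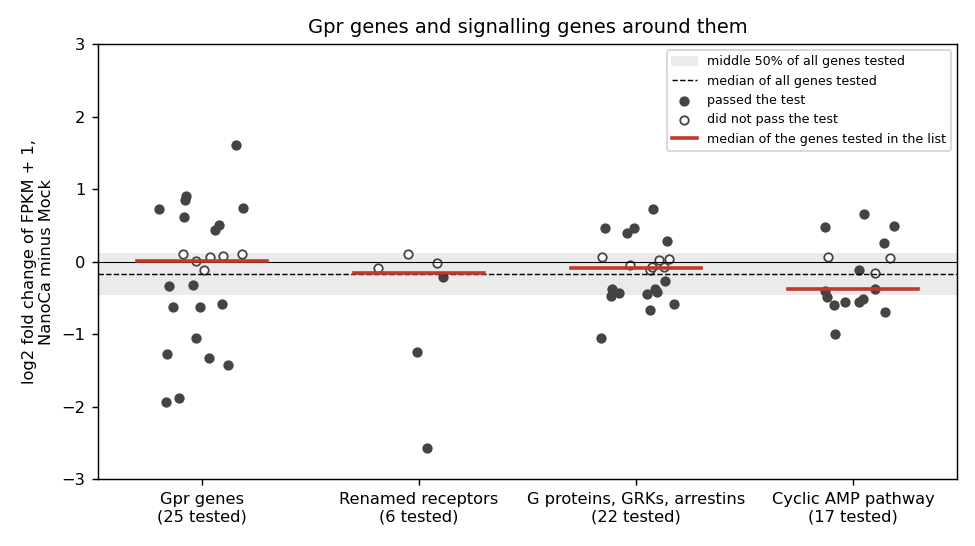
Log2 fold change (NanoCa minus Mock) of each tested gene in 4 lists, filled where the test was passed, with the list's median in red, the median of all genes dashed (-0.17) and their middle 50% shaded (-0.44 to 0.11). The 25 Gpr genes spread on both sides with a median of 0.01, and the 17 cyclic AMP genes have a median of -0.37.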

How the data were processed

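The deposited table holds FPKM values that the authors computed for each gene and sample, and per the submitters' processing notes the genome build was GRCm39. Neither aligner nor counter nor annotation is given in the sources used here. Per the labels' protocols, libraries were made with a SMARTER mRNA kit.

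Gene lengths and library totals were recovered from the steps of the FPKM values. With totals of 23991472 and 22793565 reads (NanoCa) and 31131990 and 26975437 (Mock), all 23929 genes with a value gave whole reads (tolerance 1e-06), and 99.1% of tested genes did so at the length of an annotated transcript (GENCODE M21, GRCm38), the shortest that fitted being taken. One read in 1 kilobase was worth 0.0321 to 0.0439 FPKM. Intervals cover counting error alone.

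The test took genes whose FPKM averaged 1 or more over the 4 libraries and used limma 3.58.1 under R 4.3.3 (lmFit, eBayes with trend, two-sided) on log2(FPKM + 1). The procedure was tested on simulated data. Read ratios have exact conditional binomial intervals (scipy 1.17.1). Of Gpr genes with a mean of at least 1, 24 of 25 are named (1 is not reported here), those from 0.1 by role, and of each other list the 2 largest rises and falls past the test. Members and lists were chosen with earlier results of these data known. Leaving out libraries and other scalings, pseudocounts, filters, lengths and limma-voom were tried.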

Additional observations from a re-analysis of the deposited data

How the results depend on the processing

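Over 14 alternatives, 18 of the 19 called Gpr genes kept their direction and their side of the threshold in every one in which they were tested, the exception being Gpr141 with median-of-ratios scaling (-0.13, adjusted p = 0.103), where the cause was not tested. The counts of 19 calls, 8 higher and 11 lower, were the same without each library in turn (19 to 19) and with a replicate block. Leaving out 1 library leaves a group of 1, which is then assumed to vary like the other group, so this says little of the spread. Across the tested genes, the correlation of same-numbered deviations was 0.133. It rests on only 2 libraries per group, which does not settle whether libraries of the same number were paired. The labels give only a replicate number, so it was used as a block only as an alternative. With this block 8229 genes were called, against 7929 without it. Leaving out 1 library gave 7217 to 7327. The 6 Gpr genes without a call gained one in 12 cases, mostly under other scalings or with all 3 deposited columns. The replicate 3 column repeats the mean of the other 2, so that alternative understates the spread. Its p-values and calls carry no weight, also where they kept a call. Of the 6 genes, Gpr180 (-0.11) changed sign without a call with median-of-ratios scaling (0.05) and quantile normalization (0.10). Gpr137 (0.01) ranged between -0.06 and 0.08 without each library in turn. The cause was not tested for either. Of genes beside them, P2ry14 (-0.02) was at 0.17 and Ubac2 (-0.02) at 0.16 with median-of-ratios scaling, Ubac2 was at 0.13 with quantile normalization, and without each library in turn they ranged between -0.03 and 0.0 and between -0.08 and 0.04. A mean FPKM of at least 5 left 11 Gpr calls (5 higher, 6 lower) and 8 of the cyclic AMP list (2 higher, 6 lower), since fewer genes were tested. Median-of-ratios scaling gave 3717 genes higher and 3620 lower, 8 G protein list genes higher (8 lower) and 1 renamed receptor higher, and quantile normalization also gave 1 renamed receptor higher. Without a filter 9 renamed receptors were called (3 higher, 6 lower). Chosen after seeing the data, longest transcripts as lengths gave 8 and 11 Gpr genes, and leaving out genes of chromosomes X and Y gave 8 and 10. Depth limits the 25 Gpr genes with 1 to 21 reads.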
